A study of Sus scrofa with 9 samples.

Results

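The genes described here are 38 genes of hepatic stellate cells and of the non-collagen extracellular matrix in pig liver, taken by symbol from a deposited table of 29837 gene symbols. All 38 were in the table and all 38 passed the filter on low counts. Livers of 4 MIDY and 5 wild type (WT) pigs were compared by RNA sequencing, with 1 library per liver, and all animals were 2-year-old females. MIDY means mutant INS gene-induced diabetes of youth: these pigs carry an insulin transgene with the C94Y change, which the WT group lacks. The labels state that diabetic animals were given short and long acting insulin, so transgene, diabetes and insulin treatment cannot be told apart, and they name neither the promoter of the transgene nor the litters.

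Hepatic stellate cells lie between hepatocytes and the sinusoidal endothelium, store vitamin A when quiescent, and turn into contractile, matrix-secreting myofibroblasts in an injured liver. Platelet-derived growth factor drives their division and transforming growth factor beta drives their matrix output. Portal fibroblasts and the smooth muscle of vessel walls express many of the same genes. The matrix itself holds fibronectin and elastic fibres, basement membrane laminins, small proteoglycans, matricellular proteins that act on cells, and enzymes that cross-link or cleave these parts. In bulk liver RNA, fewer cells of a type and less RNA per cell cannot be told apart.

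Levels are given as CPM, counts scaled to 1e6 per library with trimmed mean of M values (TMM) factors. CPM is not corrected for transcript length. It is compared here within a gene, or as a sum within a list of genes, where abundant genes weigh most. Depth was 14115415 to 19533463 counts per library. The members took 0.813 to 1.02% of the counts in MIDY libraries and 0.917 to 1.04% in WT libraries. Most of these were counts of FN1, with 137582 of 162337 in MIDY replicate 1 and 163493 of 202572 in WT replicate 2. That share therefore says little of the other members. The 12 hepatocyte markers, albumin and transthyretin among them, summed to 154581 to 185439 CPM in MIDY and 128708 to 185506 CPM in WT libraries, so all 9 libraries carried the RNA of their labelled tissue. Genes were called at an adjusted p below 0.05 from edgeR's quasi-likelihood test over 14100 genes, with Benjamini-Hochberg adjustment over all of them. Every adjusted p below is of that kind unless another tool is named, every fold change is MIDY over WT on the log2 scale, and intervals are 95% intervals of that log2 fold change.

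Most of these genes had lower fitted levels in MIDY liver, but MGP alone passed the test. Of the 38 members, 1 fell and 0 rose, where 0.355% of all genes tested fell and 0.816% rose. DESeq2 called 6 members lower, where 2.01% of all genes were lower by that tool, and limma voom called 2 lower, where 0.574% were. Neither called a member higher, where 355 of 14100 genes were higher by DESeq2 and 153 by limma voom. Fitted log2 fold changes were below 0 for 34 members, against 50.7% of all genes tested, and their median was -0.39, against -0.0046 over all genes. An unadjusted p below 0.05 with a lower level was reached by 20 members and with a higher level by 0, where the shares of all genes were 8.00% and 8.15%. Leaving out 1 library at a time moved that count of 20 to between 11 and 22. It was lowest without MIDY replicate 2 (11 members, where 6.23% of all genes were lower in that fit) and without WT replicate 2 (12 members, 6.38%), and highest without MIDY replicate 4 (22 members, 8.70%) and without WT replicate 1 (21 members, 9.10%). At that threshold 1 member was higher without MIDY replicate 4 (7.94% of all genes), without WT replicate 2 (7.15%) and without WT replicate 5 (7.35%). Without WT replicates 1 and 2 the counts were 17 lower (7.36%) and 1 higher (7.58%). Without MIDY replicates 1 and 2 they were 5 lower (6.07%) and 0 higher (6.07%). With limma voom they were 21 lower (9.11%) and 1 higher (9.59%). With total counts alone as the scaling they were 14 lower (6.38%) and 1 higher (8.35%). The 4 members with fitted values above 0 were NID1, RGS5, HGF and RELN. With that scaling VCAN joined them and 33 members lay below 0.

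**Figure D1:**
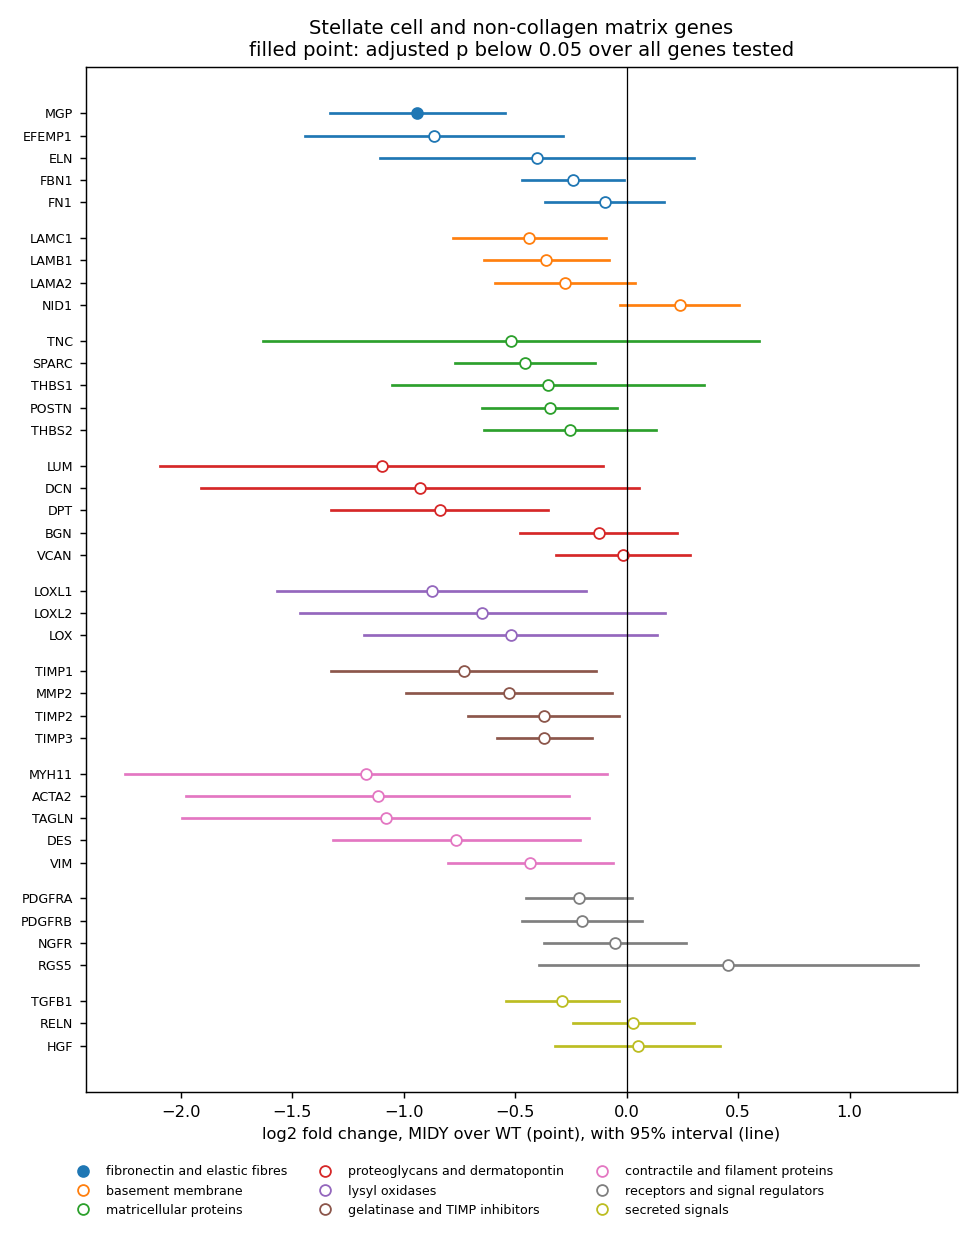
Fitted log2 fold change of each member, MIDY over WT, with its 95% interval, ordered by role; a filled point marks an adjusted p below 0.05. Only MGP is filled, 34 of 38 points lie left of 0, and the intervals are widest for TNC, MYH11 and LUM.

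MGP, matrix Gla protein, is a small secreted protein that binds calcium and keeps soft tissue from mineralizing. Its level was 10.5, 9.86, 11.9 and 19.5 CPM in MIDY libraries 1 to 4, and 25.6, 27.3, 23.0, 24.4 and 24.0 CPM in WT libraries 1 to 5. The groups did not overlap: MIDY replicate 4 was the highest of its group and still below every WT library, and the WT libraries lay close together. MGP (chromosome 5, 57665272 to 57669360, on Sscrofa11.1) averaged 12.9 ± 4.44 CPM in MIDY (SD, n = 4) and 24.8 ± 1.65 CPM in WT (SD, n = 5); the log2 fold change was -0.94 ± 0.18 (SE, edgeR adjusted p = 0.0303). The interval of that change was -1.33 to -0.55, and the fitted MIDY level was 52.1% of the WT level. The call was fragile: it was kept without MIDY replicate 4 and without WT replicate 1, and lost when any one of the other 7 libraries was left out, with edgeR adjusted p values up to 0.0915. The log2 fold change over the 9 fits stayed between -1.22 and -0.83. Over all genes, 50 were called lower with all 9 libraries, 69 and 107 in the fits that kept MGP, and 4 to 37 in the other 7. A lost call is thus not particular to MGP, and the same limit holds for other genes below in fits without 1 library. DESeq2 and limma voom called MGP lower as well, and scaling by total counts alone did not (edgeR adjusted p = 0.0851).

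EFEMP1 is a fibulin of elastic fibres. Its libraries held 2.00, 1.39, 3.48 and 3.57 CPM in MIDY and 4.73, 5.15, 5.31, 5.23 and 3.62 CPM in WT. The groups did not overlap, but the highest MIDY library and WT replicate 5 nearly touched, and the difference was not called (-0.87 ± 0.27 log2, SE; edgeR adjusted p = 0.140). EFEMP1 (chromosome 3, 85407677 to 85473251) overlaps the gene model of CCDC85A, whose own log2 fold change was 0.16 (edgeR adjusted p = 0.816). The microfibril gene FBN1 had 48.4, 45.7, 56.5 and 57.7 CPM in MIDY and 66.7, 67.1, 56.6, 58.3 and 59.3 CPM in WT, with an interval of -0.47 to -0.011 and no call. FN1, fibronectin, is made by hepatocytes as a plasma protein as well as by stellate cells. It held 8584, 7381, 6511 and 7723 CPM in MIDY and 7917, 8168, 8953, 7501 and 7875 CPM in WT, in overlapping ranges with an interval of -0.37 to 0.17. ELN, the elastin core of elastic fibres, rested on few reads, with 0.811 to 1.63 CPM in MIDY libraries (12 to 31 raw counts) and 0.904 to 2.09 CPM in WT libraries (13 to 37 raw counts).

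**Figure D2:**
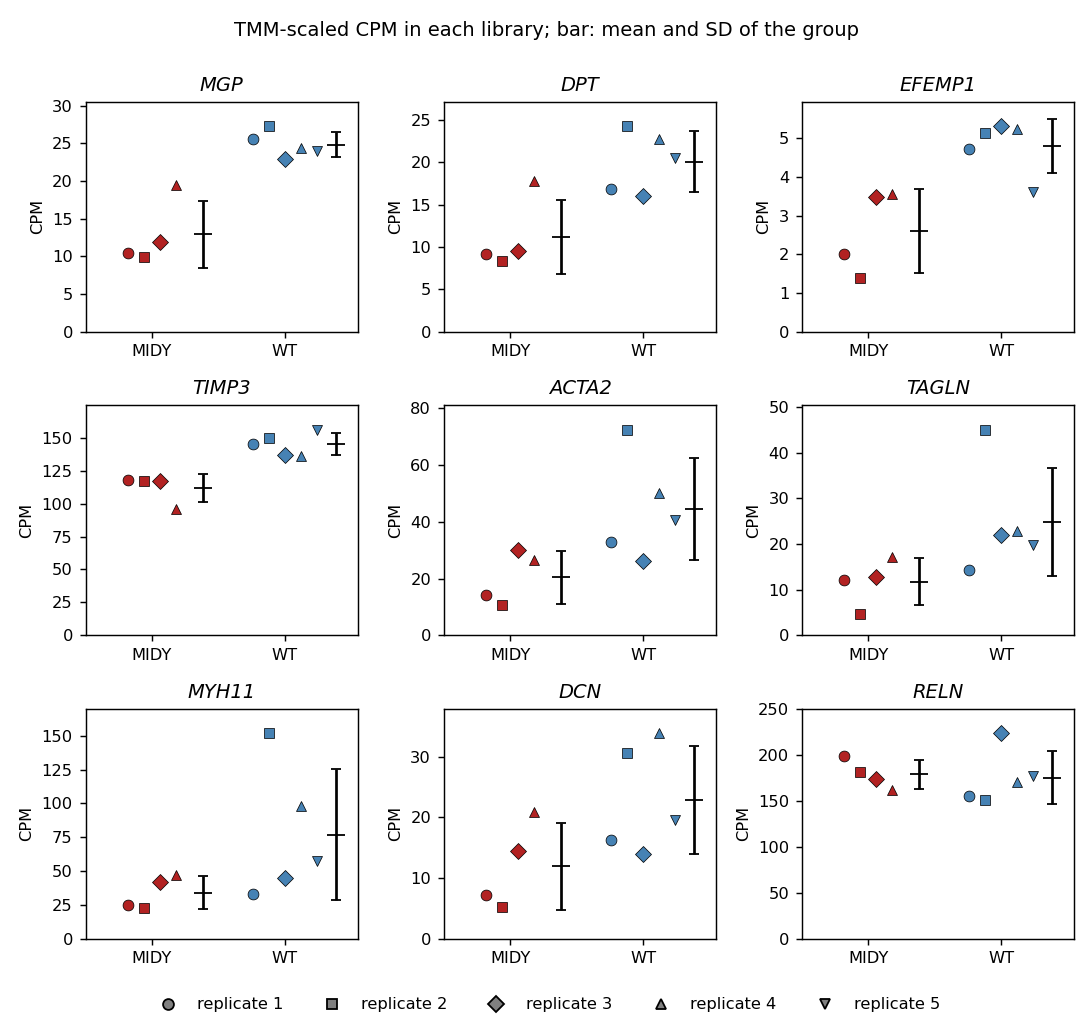
TMM-scaled CPM of 9 members in each library, MIDY on the left and WT on the right, with group mean and SD as a bar. MGP, EFEMP1 and TIMP3 do not overlap between the groups, the contractile genes are spread widely with WT replicate 2 highest, and RELN overlaps fully.

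The inhibitors and the gelatinase that govern matrix turnover all had fitted values below 0, and none was called. TIMP3, a matrix-bound inhibitor of metalloproteases, had 118, 117, 117 and 96.1 CPM in MIDY libraries and 145, 149.9, 137, 136 and 156 CPM in WT libraries. Its groups did not overlap, and the 3 highest MIDY libraries lay within 1 CPM of each other. The difference was small and missed the threshold (-0.37 ± 0.10 log2, SE; edgeR adjusted p = 0.0913), while DESeq2 called it (adjusted p = 0.00917). TIMP3 (chromosome 5, 12185816 to 12242599) overlaps the gene model of SYN3, which averaged 1.42 CPM in MIDY and 0.947 CPM in WT. TIMP1, the inhibitor that activated stellate cells release, held 1.81, 0.972, 1.47 and 1.63 CPM in MIDY and 1.60, 3.40, 2.35, 2.27 and 2.60 CPM in WT, with an interval of -1.33 to -0.14. TIMP2, which also takes part in activating MMP2, ranged over 11.7 to 14.4 CPM in MIDY and 12.7 to 22.9 CPM in WT, and MMP2, a gelatinase, over 7.63 to 13.1 CPM in MIDY and 10.1 to 18.0 CPM in WT. The fitted log2 fold changes of TIMP1, TIMP2 and MMP2 were -0.73, -0.37 and -0.53. Across all genes tested 2.63% did not overlap with MIDY lower, a pattern shown by 3 of the 38 members, MGP, EFEMP1 and TIMP3, and 3.72% did not overlap with MIDY higher, shown by 0 members. With fewer libraries more genes separate, members or not: leaving out 1 library gave 3 to 12 such members, and 3.35 to 5.56% of all genes. There were 12 members without MIDY replicate 4 (5.56% of all genes), 8 without WT replicate 1 (4.86%), 6 without WT replicate 3 or 4 (3.80 and 3.70%), and 5 without MIDY replicate 2 or 3 (3.98 and 3.82%). Without MIDY replicates 1 and 2 there were 6, where the share of all genes was 9.61%. Without WT replicates 1 and 2 there were 9 (6.48%), and 1 member did not overlap with MIDY higher (7.72%).

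The contractile and filament genes had the lowest median of the 9 roles and varied widely between animals. ACTA2, the smooth muscle actin that marks myofibroblasts and vessel walls, held 14.2, 10.8, 30.1 and 26.7 CPM in MIDY and 33.0, 72.4, 26.1, 50.2 and 40.8 CPM in WT. MIDY replicates 1 and 2 were the lowest libraries, MIDY replicates 3 and 4 lay above WT replicate 3, and WT replicate 2 stood highest. TAGLN, transgelin, an actin-binding protein of smooth muscle, had 12.1, 4.72, 12.7 and 17.1 CPM in MIDY and 14.3, 45.0, 21.9, 22.9 and 19.7 CPM in WT. MYH11, the smooth muscle myosin heavy chain, held 25.2, 22.4, 41.9 and 47.2 CPM in MIDY and 33.0, 152, 44.7, 98.2 and 57.4 CPM in WT. In all 3 genes the ranges of the groups overlapped and the highest library was WT replicate 2. Fitted log2 fold changes were -1.12 ± 0.38 for ACTA2, -1.08 ± 0.41 for TAGLN and -1.17 ± 0.47 for MYH11 (SE; edgeR adjusted p = 0.204, 0.238 and 0.275). Without WT replicate 2 they were -0.87, -0.75 and -0.77. DESeq2 called ACTA2 and TAGLN lower (adjusted p = 0.0217 and 0.0466) and not MYH11.

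DES, desmin, is a filament of muscle and of stellate cells in rodents. It had 4.99, 7.70, 7.74 and 4.56 CPM in MIDY and 8.06, 16.2, 12.2, 7.63 and 8.81 CPM in WT, and its 2 lowest libraries were MIDY replicates 4 and 1 rather than MIDY replicate 2 (-0.76 ± 0.25 log2, SE; edgeR adjusted p = 0.172). VIM, vimentin, the filament of mesenchymal cells in general, ranged over 55.8 to 88.3 CPM in MIDY and 75.9 to 124 CPM in WT, with an interval of -0.80 to -0.062. Summed over these 5 genes, MIDY libraries held 126, 101, 168 and 184 CPM and WT libraries 170.1, 401, 181, 303 and 216 CPM. Among 13 tested smooth muscle genes outside the members, 1 fell and 0 rose, and their median log2 fold change was -0.38. That gene was TPM2, a tropomyosin of muscle thin filaments (36.9 ± 7.68 CPM in MIDY, SD, n = 4, and 65.5 ± 15.1 CPM in WT, SD, n = 5; edgeR adjusted p = 0.0486). Leaving out each of the 9 libraries in turn kept that call in 2 fits (edgeR adjusted p up to 0.144). DESeq2 and limma voom each called 1 gene of that list lower, TPM2, and 7 were lower and 0 higher at an unadjusted edgeR p below 0.05.

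Fitted log2 fold changes of the proteoglycan genes and dermatopontin ran from -1.10 to -0.017, and edgeR called none of them. DPT, dermatopontin, binds decorin and collagen fibrils, and held 9.23, 8.33, 9.48 and 17.8 CPM in MIDY and 16.9, 24.3, 16.0, 22.8 and 20.5 CPM in WT. MIDY replicates 1, 2 and 3 were below all WT libraries and MIDY replicate 4 lay among them. DPT (chromosome 4, 82287657 to 82319380) was not called (-0.84 ± 0.22 log2, SE; edgeR adjusted p = 0.0955), but it was called without MIDY replicate 4 (edgeR adjusted p = 0.00788) and by limma voom with sample weights (adjusted p = 0.0386) and DESeq2 (adjusted p = 0.0149). Of the 9 fits without 1 library, only that 1 called DPT, and edgeR adjusted p values reached 0.239. In that fit 69 of all genes were called lower, against 50 in the main fit. DCN, decorin, coats collagen fibrils and binds transforming growth factor beta. Its libraries held 7.18, 5.21, 14.4 and 21.0 CPM in MIDY and 16.3, 30.6, 13.9, 33.9 and 19.7 CPM in WT. LUM, lumican, its neighbour on the chromosome, had 2.43, 2.36, 3.37 and 5.56 CPM in MIDY and 5.63, 11.5, 2.42, 11.8 and 5.59 CPM in WT. WT replicates 2 and 4 were highest for both genes; WT replicates 1, 3 and 5 lay within the MIDY range for DCN, and WT replicate 3 did for LUM. Their intervals were -1.91 to 0.054 for DCN (chromosome 5, 91678601 to 91713925) and -2.09 to -0.11 for LUM (chromosome 5, 91748871 to 91756381), and neither was called.

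BGN, biglycan, a close relative of decorin, showed no such order. It held 133, 118, 110.4 and 102 CPM in MIDY and 122, 133, 176, 95.2 and 106 CPM in WT, with an interval of -0.48 to 0.23, and WT replicate 3 was the highest library and WT replicate 4 the lowest. VCAN, versican, a large proteoglycan of provisional matrix, held 9.92 to 13.4 CPM in MIDY and 9.80 to 13.4 CPM in WT. Its interval of -0.32 to 0.28 does not reach the fitted value of DPT. The interval of DPT was -1.33 to -0.35, and these genes were not tested against each other. PRELP, another small leucine-rich proteoglycan and no member, was the single called gene of 34 tested in a list of other non-collagen matrix genes, of which 0 rose; DESeq2 called 4 of the 34 lower and limma voom 1, and 16 were lower and 1 higher at an unadjusted edgeR p below 0.05. PRELP fell to 27.3 ± 5.47 CPM in MIDY (SD, n = 4), against 46.9 ± 8.23 CPM in WT (SD, n = 5; edgeR adjusted p = 0.0389), and kept its call in 2 of 9 fits without 1 library (edgeR adjusted p up to 0.117). The median of that list was -0.49, with 31 of its 34 fitted values below 0.

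Matricellular genes had modest fitted changes, none called. SPARC, a collagen-binding protein of remodelling tissue, held 28.3, 20.0, 29.7 and 33.8 CPM in MIDY and 33.2, 38.7, 44.5, 40.1 and 35.4 CPM in WT. Only MIDY replicate 4 reached into the WT range (-0.46 ± 0.15 log2, SE; edgeR adjusted p = 0.155). POSTN, periostin, which links fibronectin and collagen, had 213, 135, 178 and 188 CPM in MIDY and 241, 189, 262, 213 and 230.5 CPM in WT, with MIDY replicate 2 far the lowest and an interval of -0.65 to -0.045. The thrombospondin THBS1, an activator of latent transforming growth factor beta, held 28.9, 20.5, 41.6 and 29.7 CPM in MIDY and 16.7, 50.0, 53.2, 37.5 and 35.4 CPM in WT. Its lowest library was WT replicate 1, and WT replicates 2 and 3 were highest. THBS2, its relative, ranged over 10.7 to 18.8 CPM in MIDY and 13.1 to 20.3 CPM in WT. TNC, tenascin C, a protein of wound matrix, ranged over 1.19 to 5.30 CPM in MIDY and 1.58 to 8.14 CPM in WT, so that the spread within each group exceeded the difference between their means.

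The laminin genes and nidogen of basement membranes had fitted values on both sides of 0, and none was called. LAMB1 held 34.2, 34.9, 42.4 and 39.9 CPM in MIDY and 37.1, 48.6, 50.7, 48.6 and 58.0 CPM in WT, and LAMC1 held 24.0, 23.0, 25.4 and 32.9 CPM in MIDY and 30.8, 48.1, 37.5, 30.8 and 31.3 CPM in WT. These encode the beta and gamma chains found in most laminin trimers, and their intervals were -0.64 to -0.081 and -0.78 to -0.10, with edgeR adjusted p = 0.198 and 0.204. WT replicate 1 lay within the MIDY range for both, as did WT replicates 4 and 5 for LAMC1. LAMB1 overlaps the gene model of LOC100623096, which averaged 13.7 CPM in MIDY and 19.7 CPM in WT. The log2 fold change of LOC100623096 was -0.51 (edgeR adjusted p = 0.452). LAMA2, an alpha chain best known from muscle, ranged over 15.4 to 26.5 CPM in MIDY and 22.9 to 28.4 CPM in WT. NID1, which bridges laminin and type IV collagen, had 331, 343, 279.6 and 267 CPM in MIDY and 284, 296, 261, 227 and 225 CPM in WT, and its fitted value was above 0 (0.24 ± 0.12 log2, SE; edgeR adjusted p = 0.368). MIDY replicates 2 and 1 were the highest for NID1, although MIDY replicate 2 was the lowest library for 19 of the 38 members.

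Lysyl oxidases, which cross-link collagen and elastin, rested on few reads. LOXL1 held 0.936, 0.486, 0.790 and 1.10 CPM in MIDY and 1.53, 1.45, 2.14, 1.07 and 1.53 CPM in WT, which is 7 to 21 raw counts per MIDY library and 17 to 31 per WT library. LOX ranged over 1.81 to 3.62 CPM in MIDY and 1.81 to 5.20 CPM in WT, and LOXL2 over 0.625 to 1.63 CPM in MIDY and 0.946 to 2.85 CPM in WT. At these counts the intervals were wide, -1.57 to -0.18, -1.18 to 0.14 and -1.47 to 0.17 for LOXL1, LOX and LOXL2, and none of the 3 was called.

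No receptor, secreted signal or marker of quiescent stellate cells was called, and RELN, HGF and NGFR had fitted log2 fold changes of 0.029, 0.049 and -0.053. RELN, reelin, a secreted protein used as a stellate cell marker in liver, held 199, 181, 173 and 161 CPM in MIDY and 156, 151, 223, 170.2 and 177 CPM in WT. The groups overlapped fully and the interval was -0.24 to 0.30, so a change as large as that of MGP lies outside it. HGF, the hepatocyte growth factor that stellate cells release, had 45.6, 44.9, 53.2 and 35.9 CPM in MIDY and 32.1, 53.6, 52.7, 34.2 and 44.2 CPM in WT, with an interval of -0.32 to 0.42. NGFR, the low-affinity neurotrophin receptor of stellate cells, held 30.9, 27.8, 24.5 and 20.9 CPM in MIDY and 25.9, 20.7, 32.9, 27.9 and 27.6 CPM in WT, with an interval of -0.37 to 0.26. The platelet-derived growth factor receptors PDGFRA and PDGFRB ranged over 19.3 to 25.6 and 14.9 to 20.9 CPM in MIDY, and over 25.4 to 28.8 and 20.2 to 25.5 CPM in WT. Their intervals, -0.45 to 0.022 and -0.47 to 0.069, both include 0. RGS5, a regulator of G protein signalling in pericytes, had 23.5, 39.6, 17.5 and 17.7 CPM in MIDY and 12.2, 18.7, 8.90, 17.3 and 31.9 CPM in WT. The highest RGS5 libraries were MIDY replicate 2 and WT replicate 5, and the interval of -0.39 to 1.31 leaves its direction unresolved.

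TGFB1, the main profibrotic cytokine, held 17.1, 18.3, 14.4 and 17.7 CPM in MIDY and 18.8, 22.4, 21.9, 17.8 and 22.0 CPM in WT, overlapping ranges (-0.29 ± 0.12 log2, SE; edgeR adjusted p = 0.250). Among 22 tested genes of transforming growth factor beta signalling, which include its other ligands, receptors, SMAD proteins and latency proteins, 0 fell and 0 rose in edgeR. Their median was -0.13 and at an unadjusted p below 0.05 there were 2 lower and 2 higher; DESeq2 and limma voom called 0 either way. In a list of 10 tested ligands, receptors and regulators of the platelet-derived and hepatocyte growth factors, 0 fell and 0 rose in edgeR, 5 were lower at an unadjusted p below 0.05 and 0 higher, and the median was -0.51. DESeq2 called 1 of these 10 lower and limma voom 0. Of 11 further stellate cell markers tested, LRAT, which esterifies vitamin A for storage, among them, 0 fell and 0 rose in edgeR, DESeq2 and limma voom, and 0 were lower and 0 higher at an unadjusted edgeR p below 0.05. Their median was -0.10, and LRAT held 10.7, 18.5, 11.9 and 7.66 CPM in MIDY and 10.3, 8.44, 8.83, 10.1 and 9.38 CPM in WT. No test was made of the difference between these markers and the matrix genes.

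**Figure D3:**
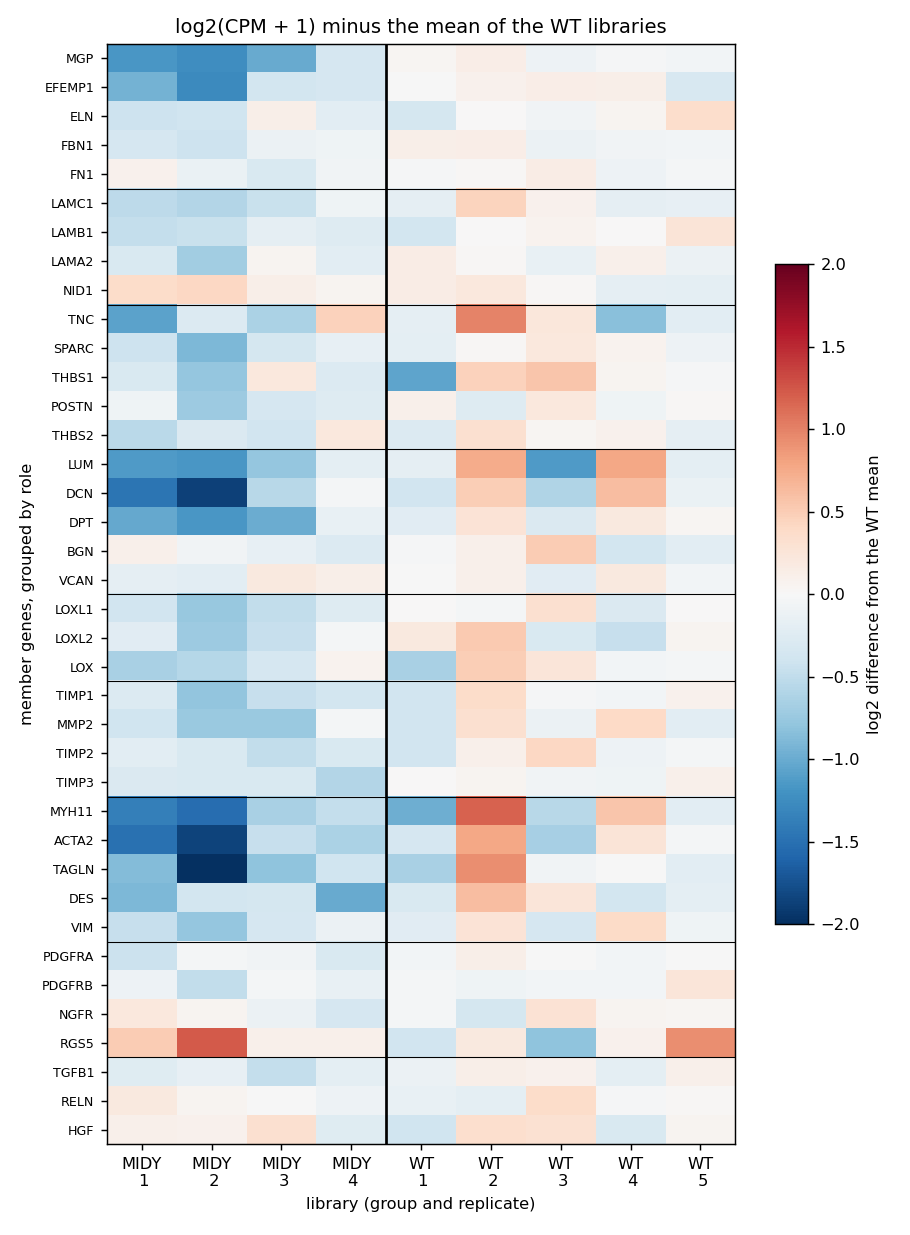
Each member's log2(CPM + 1) in each library minus its mean over the WT libraries, MIDY on the left and WT on the right, with members grouped by role. MIDY replicates 1 and 2 lie below the other libraries for MGP, DCN, ACTA2 and MYH11, and WT replicates 2 and 3 are red for different members.

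Single animals contributed unevenly. MIDY replicate 2 was the lowest of the 9 libraries for 19 members, including ACTA2, DCN, MGP, POSTN and TAGLN, while WT replicate 2 was the highest for 16, including ACTA2, DES, LAMC1 and MYH11. WT replicate 3 was the highest for 10 members, among them BGN, FN1, NGFR, POSTN and RELN, and WT replicate 4 for DCN, LUM, MMP2 and VIM. The median deviation from the WT mean on the log2(CPM + 1) scale was -0.39, -0.54, -0.35 and -0.20 in MIDY libraries 1 to 4, and -0.18, 0.16, 0.0080, -0.025 and -0.037 in WT libraries 1 to 5. WT replicate 1 therefore stood next to MIDY replicate 4. Without WT replicate 1 the median log2 fold change of the members was -0.49, and without MIDY replicate 2 it was -0.33.

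**Figure D4:**
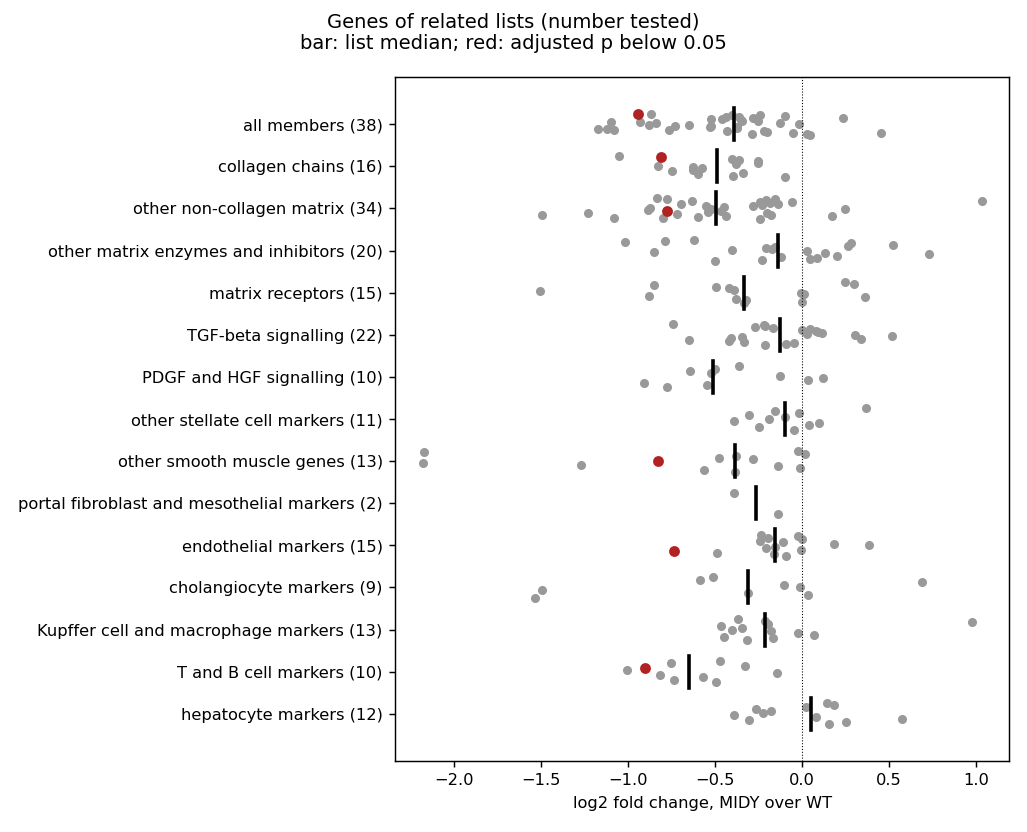
Fitted log2 fold changes, MIDY over WT, of the tested genes of each list, with the list median as a bar and called genes in red. Members, collagen chains and other non-collagen matrix genes have medians between -0.49 and -0.39. Medians of the other lists run from -0.65 (T and B cell markers) to 0.054 (hepatocyte markers). Among them are -0.51 for PDGF and HGF signalling and -0.14 for other matrix enzymes and inhibitors.

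Other lists give the setting of these values. Of 16 tested collagen chains 1 fell and 0 rose, all 16 fitted values were below 0, and their median was -0.49. DESeq2 called 5 of them lower and limma voom 2, neither called one higher, and 11 were lower and 0 higher at an unadjusted edgeR p below 0.05. The called chain was COL1A2 (34.3 ± 8.03 CPM in MIDY, SD, n = 4, and 60.1 ± 10.3 CPM in WT, SD, n = 5; edgeR adjusted p = 0.0434), which kept its call in 2 of 9 fits without 1 library (edgeR adjusted p up to 0.106). COL1A1 and COL3A1, the other chains of the main fibrils, were not called by edgeR (-1.05 ± 0.25 and -0.40 ± 0.17 log2, SE; edgeR adjusted p = 0.0789 and 0.265), while DESeq2 and limma voom called COL1A1 lower (adjusted p = 0.00173 and 0.0400).

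The 13 T and B cell markers in the table summed to 44.4 to 54.7 CPM in MIDY and 58.2 to 109.9 CPM in WT; of 10 tested 1 fell, 0 rose and all 10 lay below 0, with a median of -0.65. The one that fell was CD2, an adhesion receptor of T cells (edgeR adjusted p = 0.0377); DESeq2 called it too (adjusted p = 0.00104), limma voom did not (adjusted p = 0.0568), and 4 of the 10 were lower and 0 higher at an unadjusted edgeR p below 0.05. CD2 and EMCN kept their calls in 2 and 3 of 9 fits without 1 library (edgeR adjusted p up to 0.109 and 0.0737). Cholangiocyte markers summed to 50.4 to 70.6 CPM in MIDY and 50.9 to 115 CPM in WT, with 0 of 9 tested called by edgeR, DESeq2 or limma voom and 1 lower and 1 higher at an unadjusted p below 0.05, and were highest in WT replicates 4 and 2. Of 15 tested endothelial markers 1 fell, EMCN, the sialomucin endomucin (edgeR adjusted p = 0.0273; also called by DESeq2 and limma voom), and 0 rose; 3 were lower and 1 higher at an unadjusted p below 0.05, and the list summed to 1024 to 1122 CPM in MIDY and 977 to 1197 CPM in WT. Kupffer cell and macrophage markers summed to 866 to 1142 CPM in MIDY and 949.9 to 1367 CPM in WT, with 0 of 13 tested called by edgeR, 1 called higher by DESeq2, and 3 lower and 1 higher at an unadjusted p below 0.05. Of 7 portal fibroblast and mesothelial markers in the table, 2 passed the filter and 0 were called by any of the 3 tools or had an unadjusted p below 0.05. The list summed to 159 to 183 CPM in MIDY and 179 to 212 CPM in WT, of which FBLN1 held 132 to 147 and 145 to 170 CPM. Single genes weighed on other sums too. CCL5 held 63.5 CPM of the T and B cell sum in WT replicate 2, and SPP1 46.7 CPM of the cholangiocyte sum in WT replicate 4. Fitted values lay below 0 for 7 of 9 tested cholangiocyte markers, 12 of 15 endothelial markers and 11 of 13 Kupffer cell and macrophage markers. The medians of these lists were -0.31, -0.15 and -0.21. No marker in the table was at 0 counts in all libraries. The part of these cell types in the members' values was not tested.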

How the data were processed

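Per the labels' protocols, total liver RNA was extracted in Trizol, depleted of ribosomal RNA and made into libraries with Nugen's Encore Complete system. The 18S ribosomal RNA gene RN18S still held 6.96 to 11.4% of the counts per library. The submitters' processing notes name STAR, HTSeq, DESeq2 and the build Sscrofa11.1; for versions, annotation release and strand setting the sources used here give nothing. The deposited values are whole-number counts by the authors, unnormalized, with 1 column per library and 0 unused columns. Without the strand setting, reads of overlapping genes cannot be told apart: another gene model overlaps 13 of the 38 members in the RefSeq gene table of Sscrofa11.1, which holds all 38 and gave the positions. Gene lengths in transcripts were not used here, so levels were not compared between genes.

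For the test, edgeR 4.0.16 in R 4.3.3 was run on those counts: filterByExpr left 14100 genes (99.9% of counts), TMM set the scaling, and glmQLFit in its robust form gave the quasi-likelihood test. Standard errors are the fold change over the square root of its F statistic. Adjusted p values are two-sided, by Benjamini-Hochberg over all genes. The common biological coefficient of variation was 21.5%. The scripts were tested on simulated data. The rule for names was every member, and of 14 other lists the called genes with COL1A1 and COL3A1; any other gene was named as an example after its values were seen. One gene of the list of further stellate cell markers is not reported here and was left out of that list's counts and median. Members and lists were chosen with earlier results of these data known. Alternatives were RLE factors, total counts, the 10 most abundant genes taken out, no filter, a stricter one (1 CPM or more in 4 or more libraries), voom of limma 3.58.1 with sample weights, DESeq2 1.42.0, each library left out and WT replicates 1 and 2 left out. Leaving out MIDY replicates 1 and 2 was added after seeing the data. The series' design text counts pigs, so each library was taken as a separate animal; batches were not used here.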

Additional observations from a re-analysis of the deposited data

Results flagged for a closer look

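In 5 of 76 groups of libraries, 1 library stood apart from the rest by the gap to its nearest neighbour against the group's range, a rule that chance meets in about 1 of 20 groups. TIMP3 was 96.1 CPM in MIDY replicate 4, with the next MIDY library at 117 CPM. DPT was 17.8 CPM in MIDY replicate 4, with the next MIDY library at 9.48 CPM. TAGLN was 45.0 CPM in WT replicate 2, with the next WT library at 22.9 CPM. PDGFRA was 28.8 CPM in WT replicate 2, with the next WT library at 26.3 CPM. PDGFRB was 25.5 CPM in WT replicate 5, with the next WT library at 20.8 CPM.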

How the results depend on the processing

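The count of members called lower was 1 in edgeR, 0 with total counts alone, 6 with DESeq2 (MGP, TIMP3, DPT, EFEMP1, ACTA2 and TAGLN, where 2.01% of all genes were lower), 2 with limma voom (MGP and DPT, where 0.574% were lower), and 0 to 2 when 1 library was left out. It was 0 without WT replicates 1 and 2 (MGP edgeR adjusted p = 0.0988) and 0 without MIDY replicates 1 and 2 (0.181). RLE factors, both other filters and taking out the 10 most abundant genes, FN1 among them, kept it at 1, MGP. Of all genes tested, 50 were called lower in the main edgeR fit, 34 with total counts alone and 4 to 107 without 1 library. There were 24 without WT replicates 1 and 2 and 9 without MIDY replicates 1 and 2. With so few genes called, 0 of 38 members says little of the members. No member was called higher under any alternative run, where 34 (without MIDY replicate 2) to 355 (DESeq2) of all genes tested were. The median log2 fold change of the members was -0.49 to -0.33 without 1 library and -0.26 without MIDY replicates 1 and 2. LOX, LOXL1, LOXL2, ELN and TIMP1 rest on few counts, which limits what could be detected. No paired analysis was possible because the labels name no litters or pairs. Replicate numbers order the libraries within a group, so the same number in MIDY and WT does not mark a pair.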

Other observations

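Integrins and other matrix receptors gave 0 called genes of 15 tested in edgeR and limma voom and 2 called lower by DESeq2, with a median log2 fold change of -0.33; 4 were lower and 2 higher at an unadjusted p below 0.05. ITGB3 and ITGA8, named after their values were seen, held 13.2 ± 1.40 and 1.71 ± 0.660 CPM in MIDY (SD, n = 4) and 24.2 ± 8.04 and 4.88 ± 2.69 CPM in WT (SD, n = 5; edgeR adjusted p = 0.0851 and 0.111). Of 20 further matrix enzymes and inhibitors tested, 0 were called in edgeR and limma voom and 1 lower and 1 higher in DESeq2, with a median of -0.14, and 4 were lower and 1 higher at an unadjusted p below 0.05. P4HA1, a collagen prolyl hydroxylase subunit named after its values were seen, was the higher one, at 141, 119, 249 and 167 CPM in MIDY and 110.1, 64.1, 109, 117 and 109.8 CPM in WT, without overlap (edgeR adjusted p = 0.145). SERPINH1, the collagen chaperone of the same list, had a log2 fold change of -0.23 ± 0.15 (SE; edgeR adjusted p = 0.487).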
